A study of Mus musculus with 10 samples.

Results

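The subunits of oxidative phosphorylation were followed in the liver of 10 mice on Affymetrix 430 2.0 arrays, which read each gene with 1 or more probe sets. Members were taken by name: every gene with a single symbol in the platform annotation that begins with Ndufa, Ndufb, Ndufc, Ndufs, Ndufv, Uqcr, Cox4 to Cox8 or Atp5, together with Sdha, Sdhb, Sdhc and Sdhd, and without the assembly factors named Ndufaf. The rule found 82 genes among 18193 and 169 probe sets among 34945 with 1 symbol. Of these genes 36 belong to complex I, 4 to complex II, 8 to complex III, 17 to complex IV and 17 to complex V.

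All 10 mice are labelled ApoE-/-, which is to say without apolipoprotein E, the protein through which lipoprotein remnants are taken up. The control group is 5 mice infected with an adenovirus that carries GFP, a fluorescent protein (arrays 11 to 15). The other group is 5 mice infected with an adenovirus that carries a dominant negative form of cJun (arrays 16 to 20). cJun is a subunit of AP-1, a transcription factor, and a dominant negative form blocks the normal protein. Each array holds the liver RNA of a separate mouse. The strain, age and sex of the mice, the dose, the time after infection and the promoter in the virus are not given in the sources used here.

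Oxidative phosphorylation takes place in the inner membrane of the mitochondrion. Complexes I and II pass electrons from NADH and succinate to ubiquinone, complex III passes them on to cytochrome c, and complex IV hands them to oxygen. Complexes I, III and IV pump protons as they do so, and complex V, the ATP synthase, lets the protons flow back and makes ATP. Most subunits are encoded in the nucleus and a core set in mitochondrial DNA, so that a complex is built from both. The liver is rich in mitochondria and draws on this system for gluconeogenesis, urea synthesis and the oxidation of fatty acids.

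Several facts of the arrays bear on every comparison. Apoe itself read 10.25 ± 0.59 (SD, n = 5) on the controls and 15.66 ± 0.21 (SD, n = 5) on the other arrays, on the log2(intensity + 16) scale used throughout, which goes against the ApoE-/- label. That group is therefore called "labelled dn-cJun". The difference in Apoe follows the same split of the arrays as the virus. The design cannot tell the part of the virus from that of the Apoe difference in any comparison below. Jun differed by -0.07 on the log2 scale (SE 0.17, adjusted p = 0.890 by limma). Controls 14 and 15 read 13.71 and 13.63 for Xist, the non-coding RNA that coats the inactive X, while no other array was above 6.72, so counts are also given without them. Transcripts of the Y chromosome showed the opposite split. Eif2s3y read 5.22 and 4.08 on controls 14 and 15 and 10.58 to 11.13 on all other arrays. Kdm5d read 4.82 and 5.21 against 7.87 to 8.38, and Uty 5.82 and 4.95 against 8.37 to 9.08. By these transcripts controls 14 and 15 read as female and all other arrays as male, so sex was unbalanced between the groups. For control 11 the extraction entry names Trizol, and for the other 9 arrays it names only Affymetrix. The median deposited intensity was 85.3 to 127.5 per array and arrays correlated at 0.948 to 0.965. The 3 prime to 5 prime difference of Gapdh differed between the groups by 0.031 and that of Actb by 0.040 (exact permutation test, two-sided, adjusted p = 0.429 for both).

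The tissue label matched its markers. All 5 hepatocyte markers were above the filter. Their summed intensity after quantile normalization was 245014 to 259305 on the controls and 251943 to 267129 on the labelled dn-cJun arrays. That step gives all arrays the same distribution and so brings the sums of the brightest transcripts close together. The sums therefore do not compare the groups. The transcripts used as markers of the members, Ndufa1, Sdha and Cox4i1, stood at the 98.96th, 98.60th and 99.54th percentiles of all probe sets, although a signal also depends on the probes. Of the 79 members that passed the filter on dim genes, 71 were at or above the 90th percentile. The other 8 were Cox6b2, Cox8c, Ndufb1, Cox7c, Cox7a1, Ndufa4l2, Cox6a2 and Cox4i2. No single-symbol probe set of Cox7b2, Cox8b or Ndufb4 passed the filter. Cox4i2 passed only through the labelled dn-cJun arrays, since its mean on the controls was below the filter. Of these 11, Cox7b2, Cox6b2 and Cox8c are known as testis isoforms, Cox8b, Cox7a1 and Cox6a2 as isoforms of heart and skeletal muscle, Cox4i2 as a lung isoform and Ndufa4l2 as a gene induced by hypoxia.

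Differences between the groups were small for most members. Of 79 members tested 57 had a log2 fold change above 0 and 22 below 0, with a median of 0.035 and quartiles of -0.0094 and 0.117. Over all 12736 genes tested the median was 0.0015, the quartiles were -0.14 and 0.14 and 50.3% lay above 0. The median SD within groups was 0.088 over members and 0.225 over all genes. In bulk tissue, fewer cells of a type and less RNA per cell cannot be told apart.

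A single member passed the threshold, an adjusted p under 0.05 over all genes: Atp5k fell, and 0 members rose. In the same fit 0.432% of all genes were called lower and 0.345% higher, so 1 of 79 is close to the background. An unadjusted p under 0.05 was seen in 14.9% of all genes. There were 13 such members higher, where 7.42% of all genes were, and 4 lower, where 7.47% were. The arrays of the groups did not overlap for 3 members on the higher side (Ndufa4, Atp5g1 and Atp5mpl) against 2.1% of all genes. On the lower side there were 4 (Atp5k, Atp5j2, Ndufab1 and Uqcrh) against 2.13%. Without controls 14 and 15 no member was called by limma, where 0.408% of all genes were, and 47 members lay above 0, where 51.2% of all genes did. Of the members, 4 higher and 8 lower had an unadjusted p under 0.05, where 7.03% and 6.62% of all genes did.

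By complex, the median log2 fold change was 0.082 for complex I (25 of 35 above 0), 0.087 for complex II (4 of 4) and 0.043 for complex III (7 of 8). It was 0.00096 for complex IV (8 of 15) and 0.062 for complex V (13 of 17). Without controls 14 and 15 these medians became 0.046, 0.055, 0.035, -0.031 and 0.034. Differences between complexes were not tested. The plot by complex shows most points within 0.2 of zero, with wider bars for Ndufa4l2 and Cox4i2.

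**Figure D1:**
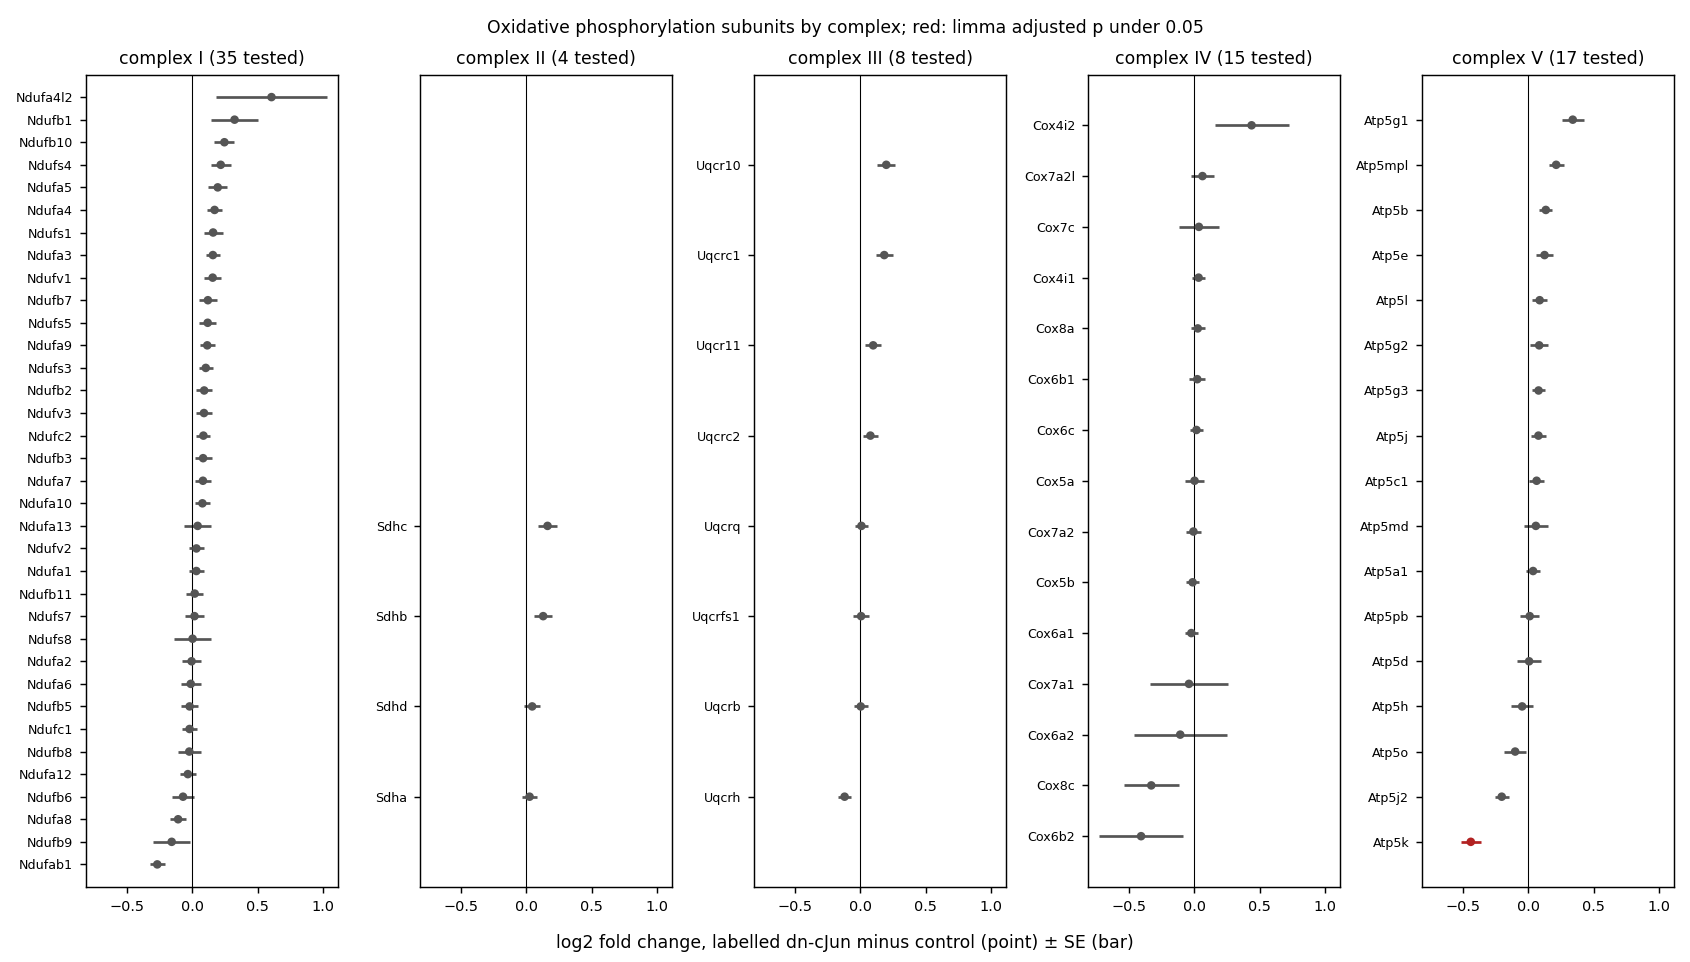
Log2 fold change of each tested member, labelled dn-cJun minus control, by complex (x axis, log2; points are estimates, bars ± SE, 5 arrays per group). Atp5k at -0.44 is the only member in red, that is with a limma adjusted p under 0.05, and most members lie within 0.2 of 0.

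Seen array by array, the groups overlapped. Each member was centred on its own mean and the median over the 79 members was taken. Controls 11 to 15 gave -0.04, 0.07, -0.03, -0.08 and -0.07. The labelled dn-cJun arrays 16 to 20 gave 0.01, 0.02, 0.01, 0.03 and 0.08. Control 12 had 15 of 79 members below their own mean, while control 14 had 64 below. All 5 labelled dn-cJun arrays were above 0, as was control 12, and the other 4 controls were below it. Left out of the fit, control 12 took the median from 0.035 to 0.067.

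**Figure D2:**
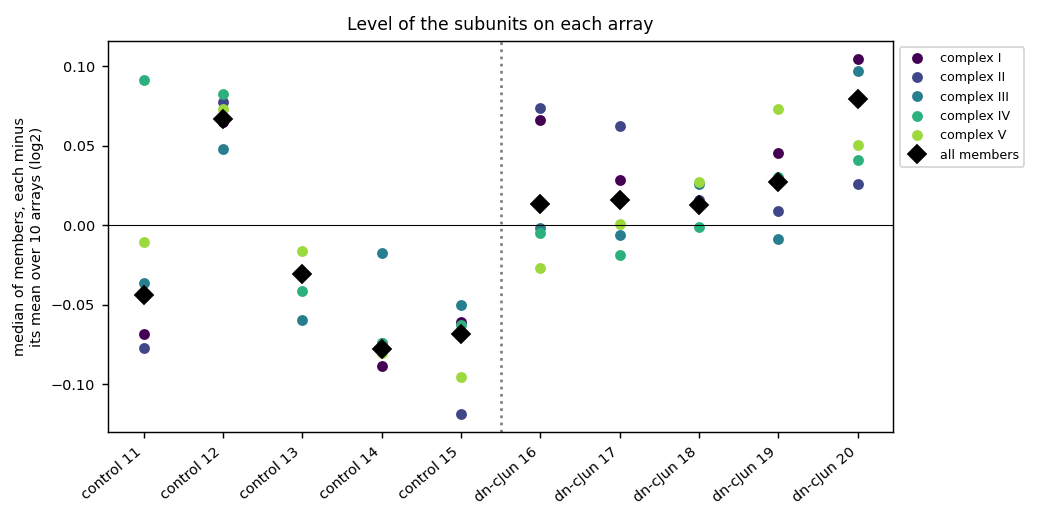
Median over members of the log2 value minus the member's mean over 10 arrays (y axis, log2), for each array (x axis). Diamonds show all 79 members and circles the complexes. Control 12 at 0.07 lies among the labelled dn-cJun arrays (0.01 to 0.08), and the other 4 controls lie below 0.

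The ATP synthase held the member that was called. Atp5k encodes subunit e of the membrane part, which helps hold the dimers of the enzyme together. Its probe set with the highest mean, 1450640_x_at, read 13.49, 13.64, 13.74, 13.63 and 13.63 on controls 11 to 15 and 12.99, 13.38, 13.26, 13.16 and 13.12 on arrays 16 to 20. All 5 labelled dn-cJun arrays lay below all 5 controls. The means were 13.62 ± 0.09 (SD, n = 5) and 13.18 ± 0.15 (SD, n = 5), a log2 fold change of -0.44 (SE 0.076, adjusted p = 0.0236 by limma), or 0.736 of the control signal. The call was lost without control 13 (adjusted p = 0.0618), control 14 (0.0560), array 19 (0.0604) or array 20 (0.0640) and held without any of the other 6 arrays. It was also lost without controls 14 and 15 together (0.0640), while the log2 fold change stayed at -0.44.

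The other probe sets of Atp5k went different ways. Probe set 1422525_at read 13.45, 13.41, 13.52, 13.33 and 13.25 on the controls and 12.89, 12.74, 12.58, 12.67 and 12.61 on the labelled dn-cJun arrays. The log2 fold change was -0.69 (SE 0.076, adjusted p = 0.00118 with every probe set as the unit), and this call held with each array left out and without controls 14 and 15 (-0.77, adjusted p = 0.00252). Probe set 1434053_x_at read 13.03, 12.99, 13.02, 12.77 and 12.91 against 13.17, 13.13, 13.13, 13.01 and 13.02, a log2 fold change of 0.15 (SE 0.067, adjusted p = 0.362). Its groups overlapped narrowly, with array 19 at 13.01 below control 11 at 13.03. The gene table names 4 pseudogenes after Atp5k, and an _x_at name marks a probe set whose probes can also match other transcripts. Which transcripts each set reads was not tested.

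The RefSeq promoter of Atp5k is shown because this gene carries the call. The 250 bases before the start lie on the minus strand at chr5:108434400-108434649 (GRCm38.p6), and capitals mark the palindromic site of NRF1, the letters GCGCA followed by their own reverse complement. NRF1 is a known activator of respiratory chain genes.
Atp5k: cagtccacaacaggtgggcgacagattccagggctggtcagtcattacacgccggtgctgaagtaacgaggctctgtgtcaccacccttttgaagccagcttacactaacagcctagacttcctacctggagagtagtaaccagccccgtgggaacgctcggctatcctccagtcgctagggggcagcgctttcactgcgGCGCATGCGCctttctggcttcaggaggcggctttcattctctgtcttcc
Promoter windows of 300 bases, 250 before and 50 after the start, were found for 67 of the 82 members, 72 windows in all. The NRF1 letters were in 5.56% of them and in 0.971% of all 32851 windows in the table.

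The f subunit neighbours subunit e in the membrane part and is encoded by Atp5j2. Its main probe set, 1435395_s_at, read 14.23, 14.16, 14.24, 14.09 and 14.11 on the controls and 13.95, 13.94, 13.97, 13.94 and 14.02 on the labelled dn-cJun arrays. These groups did not overlap either, and the log2 fold change was -0.20 (SE 0.052, adjusted p = 0.0935). Probe set 1416269_at of the same gene gave 0.01 (SE 0.050), and its groups overlapped. The difference between these sets was not tested.

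On the higher side stood Atp5g1, 1 of the 3 genes for the identical mature c subunit that forms the rotor ring. It read 12.997, 13.39, 13.24, 13.18 and 13.46 on the controls and 13.53, 13.58, 13.52, 13.63 and 13.71 on the labelled dn-cJun arrays. Every labelled dn-cJun array was above the highest control, control 15, by a small margin, and the log2 fold change was 0.34 (SE 0.083, adjusted p = 0.0804), 1.26-fold. Its paralogs gave 0.08 for Atp5g2 on its main probe set (SE 0.069, adjusted p = 0.626) and 0.08 for Atp5g3 (SE 0.049, adjusted p = 0.494). The other probe set of Atp5g2 above the filter gave 0.42, more than Atp5g1. The difference between the paralogs was not tested. Atp5mpl, a small proteolipid of the membrane part, read 13.34, 13.38, 13.39, 13.24 and 13.19 on the controls and 13.50, 13.55, 13.46, 13.54 and 13.55 on the labelled dn-cJun arrays, again without overlap. Its log2 fold change of 0.21 (SE 0.058, adjusted p = 0.114) became 0.15 without controls 14 and 15, its lowest arrays.

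No subunit of the catalytic head was called. Atp5b, the beta subunit that forms ATP, read 14.61 to 14.72 on the controls and 14.72 to 14.82 on the labelled dn-cJun arrays, a log2 fold change of 0.13 (SE 0.049, unadjusted p = 0.0174, adjusted p = 0.227 by limma). The log2 fold changes of Atp5a1 (alpha), Atp5c1 (gamma), Atp5d (delta) and Atp5e (epsilon) were 0.04, 0.06, 0.0047 and 0.12, with adjusted p between 0.396 and 0.989. The stalk subunits Atp5pb and Atp5h gave 0.01 and -0.05. Without controls 14 and 15, which read 14.10 and 14.18 for Atp5h against 14.46 to 14.50 on the other controls, Atp5h gave -0.19 (adjusted p = 0.253). Atp5o, which ties the stalk to the head, gave -0.10 on its main probe set (SE 0.082, adjusted p = 0.609), -0.22 without controls 14 and 15 (adjusted p = 0.221), and -0.44 on 1437164_x_at (SE 0.132, adjusted p = 0.156). On that second set, control arrays read 11.35 to 12.05 and the other arrays 11.05 to 11.45.

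**Figure D3:**
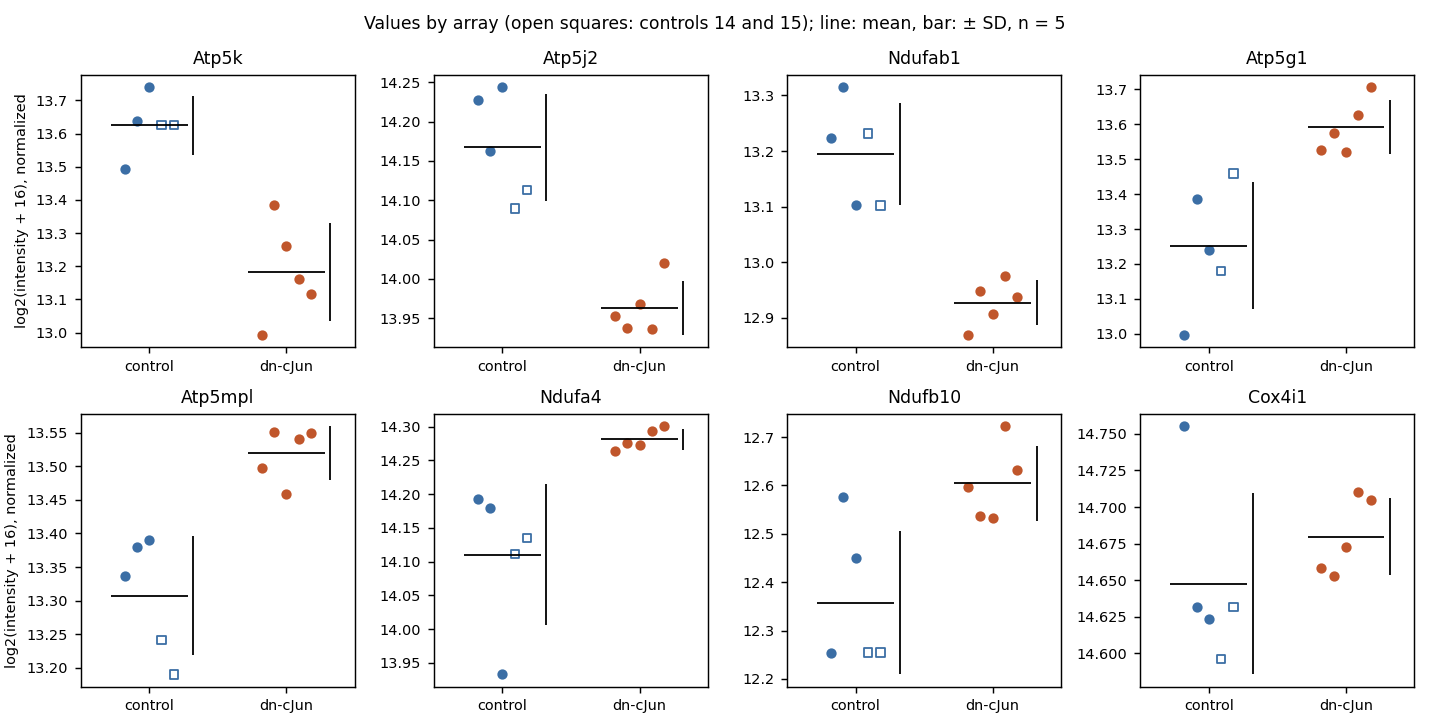
Log2(intensity + 16) after quantile normalization (y axis, each panel on its own scale that does not start at 0) on 5 control and 5 labelled dn-cJun arrays for 8 members. Points are arrays, open squares controls 14 and 15, lines means and bars ± SD. Atp5k, Atp5j2 and Ndufab1 lie lower and Atp5g1, Atp5mpl and Ndufa4 higher on every labelled dn-cJun array, while Ndufb10 and Cox4i1 overlap.

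In complex I no member was called, and the background of calls was 0.777% of all genes. The member with the smallest p was Ndufab1, the mitochondrial acyl carrier protein, which serves fatty acid synthesis in the mitochondrion as well as complex I. It read 13.22, 13.32, 13.10, 13.23 and 13.10 on the controls and 12.87, 12.95, 12.91, 12.98 and 12.94 on the labelled dn-cJun arrays. The groups were separate, and the log2 fold change was -0.27 (SE 0.059, adjusted p = 0.0576). Its 4 other probe sets gave values from -0.33 to 0.26 with overlapping groups.

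The 7 members of complex I that were higher at an unadjusted p under 0.05 were Ndufb10, Ndufa4, Ndufa3, Ndufs4, Ndufa5, Ndufv1 and Ndufs1. Over their probe sets above the filter, Ndufa3, Ndufs4 and Ndufv1 ranged from -0.08 to 0.16, -0.07 to 0.28 and -0.05 to 0.16. The 2 such sets of Ndufa5 gave 0.03 and 0.20. Ndufb10, an accessory subunit of the membrane arm, read 12.25, 12.58, 12.45, 12.26 and 12.25 on the controls and 12.60, 12.54, 12.53, 12.72 and 12.63 on the labelled dn-cJun arrays. Only control 12 reached into the range of the other group, and the log2 fold change was 0.25 (SE 0.077, adjusted p = 0.156). Ndufa4, listed here by its name although the protein is now assigned to complex IV, read 14.19, 14.18, 13.93, 14.11 and 14.13 on the controls. On the labelled dn-cJun arrays it read 14.26, 14.28, 14.27, 14.29 and 14.30, a group of little spread just above the controls. Its log2 fold change was 0.17 (SE 0.058, adjusted p = 0.184). Ndufa5 gave 0.20 (SE 0.071, adjusted p = 0.220). Ndufa3 gave 0.16 (SE 0.054, adjusted p = 0.194), with 13.73 to 13.91 on the controls and 13.89 to 14.03 on the other arrays.

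Among the subunits that carry electrons through complex I, Ndufv1, which binds NADH and the flavin, had a log2 fold change of 0.16 (SE 0.066, adjusted p = 0.289) and its partner Ndufv2 0.03 (SE 0.055). Of the iron-sulfur subunits, Ndufs1 had 0.16 (SE 0.073, adjusted p = 0.326), Ndufs7 0.02 and Ndufs8 0.0029. Ndufs4, an accessory subunit whose loss in mice is used as a model of Leigh syndrome, had 0.22 (SE 0.076, adjusted p = 0.201), and 0.13 without controls 14 and 15, whose readings of 11.82 and 11.88 were its lowest. Ndufa1, a small subunit of the membrane arm, read 13.89 to 14.06 on the controls and 13.93 to 14.09 on the other arrays, with a log2 fold change of 0.03 (SE 0.057, adjusted p = 0.844).

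Complex II, succinate dehydrogenase, is built from nuclear genes alone and also belongs to the citric acid cycle. Its membrane anchor Sdhc read 12.33, 12.68, 12.58, 12.53 and 12.49 on the controls and 12.79, 12.68, 12.77, 12.65 and 12.54 on the labelled dn-cJun arrays, with overlap, a log2 fold change of 0.16 (SE 0.075, adjusted p = 0.333). The iron-sulfur subunit Sdhb gave 0.13 (SE 0.068, adjusted p = 0.404) and the second anchor, Sdhd, 0.05 (SE 0.064, adjusted p = 0.797). The flavoprotein Sdha, which oxidises succinate, read 13.49 to 13.70 on the controls and 13.59 to 13.67 on the other arrays. Its log2 fold change was 0.03 (SE 0.055, adjusted p = 0.874), and -0.03 without controls 14 and 15. All 4 values were positive on the main probe sets over all arrays, but none of the subunits separated the groups. With every probe set above the filter, 6 sets of complex II were higher and 2 lower, with Sdhd down to -0.19 and Sdha to -0.07. Without controls 14 and 15, 4 sets were higher and 4 lower.

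Among the subunits of complex III, Uqcr10 and Uqcrc1 lay highest on the main probe sets. Uqcr10, a small subunit, read 13.06 to 13.33 on the controls and 13.27 to 13.46 on the labelled dn-cJun arrays, with a log2 fold change of 0.20 (SE 0.067, adjusted p = 0.188), and 0.13 without controls 14 and 15. Uqcrc1, a core protein on the matrix side, gave 0.18 (SE 0.064, adjusted p = 0.206) and the small subunit Uqcr11 0.10 (SE 0.060, adjusted p = 0.476). The second core protein, Uqcrc2, gave 0.08 on its main probe set and 0.23 on its other set. Uqcrfs1, the Rieske iron-sulfur protein, gave 0.01. The sets of Uqcrq above the filter ranged from -0.31 to 0.21.

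Uqcrh, the hinge protein that supports docking of cytochrome c, was read in opposite directions by its 2 probe sets. The set that stands for the gene, 1453229_s_at, gave 13.71, 13.74, 13.65, 13.66 and 13.65 on the controls and 13.56, 13.50, 13.51, 13.62 and 13.62 on the labelled dn-cJun arrays, a log2 fold change of -0.12 (SE 0.052, adjusted p = 0.301). The other, 1452133_at, gave 13.25, 13.46, 13.45, 13.52 and 13.41 on the controls and 13.69, 13.73, 13.66, 13.75 and 13.58 on the labelled dn-cJun arrays, a log2 fold change of 0.27 (SE 0.064, adjusted p = 0.0821). Each set separated the groups, and neither passed the threshold. The gene table names 2 pseudogenes after Uqcrh, and their part in this was not tested.

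In complex IV, 11 of 15 tested members (73.3%) were within 0.1 of zero, against 59.5% of all members tested and 37.6% of all genes. All genes are not a background matched for signal, as the median SD within groups was 0.088 over members and 0.225 over all genes. These shares moved with the scaling between arrays: they were 53.3%, 63.3% and 22.9% with the deposited values, 40%, 38.0% and 35.8% with equal array medians, and 26.7%, 24.1% and 36.0% with a factor per array undone. After quantile normalization the liver and general isoforms Cox4i1, Cox5a, Cox5b, Cox6a1, Cox6b1, Cox6c, Cox7a2 and Cox8a had log2 fold changes between -0.02 and 0.03 on their main probe sets. Over every set above the filter, Cox7a2 ranged from -0.0076 to 0.15, Cox5b from -0.04 to 0.13 and Cox6a1 from -0.02 to 0.08. Cox4i1, which marks the complex, read 14.76, 14.63, 14.62, 14.60 and 14.63 on the controls and 14.66, 14.65, 14.67, 14.71 and 14.70 on the labelled dn-cJun arrays. Control 11 was its highest reading, and the log2 fold change was 0.03 (SE 0.049, adjusted p = 0.814). The standard errors of these 8 members were 0.049 to 0.072.

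The tissue-restricted isoforms of complex IV had larger standard errors, from 0.210 to 0.357. Cox4i2 read 5.40 to 6.12 on the controls and 5.79 to 6.72 on the labelled dn-cJun arrays, so that the groups overlapped. No fold is given for it, because the mean on the controls was under the filter (6.06). Cox6b2 read 11.66 on control 11, 9.68 to 10.35 on the other controls and 9.24 to 10.13 on the labelled dn-cJun arrays, a log2 fold change of -0.41 (SE 0.320, adjusted p = 0.601). It was -0.06 without control 11 and -0.76 without controls 14 and 15 (adjusted p = 0.337). Cox8c gave -0.33 (SE 0.210, adjusted p = 0.494), and -0.66 without controls 14 and 15, which read 8.72 and 8.76 against 9.45 to 9.77 on the other controls. Cox6a2 and Cox7a1 gave -0.11 and -0.04 with standard errors of 0.357 and 0.298. Of the 5 muscle markers 2 were above the filter and none was called. Ckm, the muscle creatine kinase, gave 0.79 (SE 0.347, adjusted p = 0.310) and Acta1, the skeletal actin, 0.22 (SE 0.272). Cox7a2l, which takes part in assembling supercomplexes, gave 0.06 (SE 0.085) on its main probe set.

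Probe sets of the same gene differed in sign for many members, as they did for many genes. Of the 82 members 33 had 1 probe set and 49 had more, up to 6, and 156 of the 169 probe sets were above the filter. For 29 of the 46 members with at least 2 probe sets above it, the log2 fold changes had both signs (63%), against 52.7% of all 5858 genes with at least 2 such sets. In 14 of the 46 (30.4%), the signs differed and at least 1 set had an unadjusted p under 0.05, against 13.7% of those genes. With every probe set as the unit, 2 member sets were called lower, both of Atp5k, where 0.451% of all 22847 sets were. Without controls 14 and 15 there was 1 lower, where 0.236% were. A set of Ndufc2 was past the threshold on the higher side in both fits, where 0.293% and 0.0788% of all sets were, but its mean on the controls was under the filter. It entered the test only through the other group and is given as a description.

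That set was 1431670_at of Ndufc2, a subunit at the junction of the arms of complex I. It read 6.25, 5.04, 6.26, 5.64 and 5.02 on the controls and 7.55, 8.27, 8.29, 7.63 and 7.68 on the labelled dn-cJun arrays, so that a set on both sides of the filter (6.06) on the controls was above it on every array of the other group. No fold is given for it. The 3 other sets of Ndufc2 gave log2 fold changes of 0.03, 0.09 and -0.01, with group means between 12.73 and 13.77. What transcript that set reads was not tested.

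Among the remaining discordant members, Ndufs7 gave -0.24 on 1424313_a_at (SE 0.062, adjusted p = 0.1002, groups separate) and 0.02 on its main set. Cox7a2l gave -0.27 on 1421772_a_at (SE 0.087, adjusted p = 0.179) and Ndufb7 -0.16 on 1448331_at (adjusted p = 0.330) against 0.12 on its main set. Ndufs8 gave -1.01 on 1434212_at (SE 0.382, adjusted p = 0.262), where array 16 read 6.31 and array 17 read 7.52 against 8.41 to 9.13 on the controls. Its 5 other sets gave 0.0029 to 0.15. By contrast all 5 sets of Ndufa7, an accessory subunit, were positive, from 0.08 to 0.25, the highest on 1422976_x_at (SE 0.063, adjusted p = 0.0949, groups separate).

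Some probe sets are assigned by the annotation to a subunit together with other symbols, and none of these was called. The sets shared by Ndufb4, Ndufb4b and Ndufb4c gave 0.0047 and -0.06, the set shared by Ndufs6 and Ndufs6b 0.08 (adjusted p = 0.632), and a set shared by Ndufa11 and Ndufa11b -0.19 (adjusted p = 0.472). Larger values came from a set shared by Ndufa13 and Yjefn3, at 0.68 (unadjusted p = 0.0185, adjusted p = 0.268 by limma), and a set shared by Ndufb2 and Adck2, at 0.55 (adjusted p = 0.666).

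**Figure D4:**
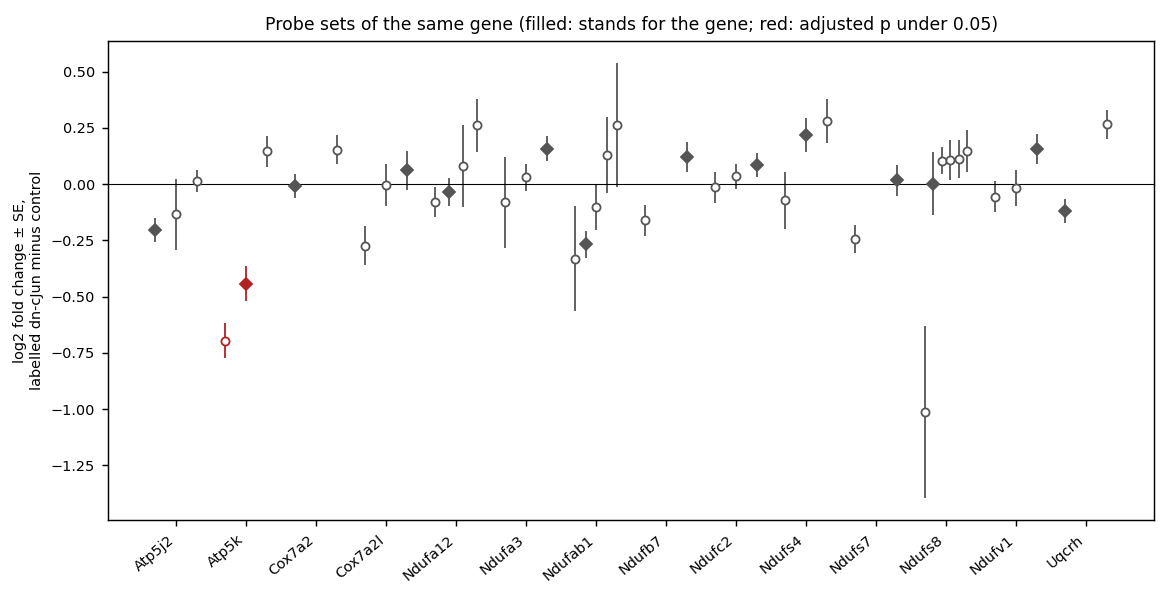
Log2 fold change ± SE of every probe set above the filter (y axis, labelled dn-cJun minus control) for the 14 members whose sets differ in sign and include an unadjusted p under 0.05. Diamonds stand for the gene and red marks an adjusted p under 0.05: 2 sets of Atp5k at -0.44 and -0.69. The set of Ndufc2 with a control mean under the filter is not drawn.

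Since the virus carries a form of cJun, the AP-1 letters TGACTCA (or TGAGTCA, read on the other strand) were searched in the promoter windows. They were in 8.33% of the member windows and in 5.2% of all windows. The 6 members that hold them are shown with 30 bases around the match, in capitals.
Atp5c1: agccTGAGTCActtacctcgtcgcggcatt
Atp5g1: agctgggaggTGAGTCAgtcaccttgagca
Ndufa13: ttaggctttgTGACTCAatcgcccttaatg
Ndufa5: tgttcttaggTGACTCAggggcagcatcga
Ndufa9: cctTGAGTCAgtccttggttaactctgaaa
Uqcrh: gaggagcagaTGACTCAagtatcttaggga
All 6 are on the minus strand of GRCm38.p6, at chr2:10080731-10080760, chr11:96075606-96075635, chr8:69902024-69902053, chr6:24527613-24527642, chr6:126849365-126849394 and chr4:116075254-116075283 in that order. The log2 fold changes of these members were 0.06, 0.34, 0.04, 0.20, 0.12 and -0.12, none with an adjusted p under 0.05. The YY1 letters AAGATGGCG were in 8.33% of the member windows (Atp5j, Atp5j2, Ndufa9, Ndufc1, Ndufs4 and Ndufs7) and in 1.4% of all, the ETS letters CCGGAAGT in 6.94% and 3.89%, and the CRE letters TGACGTCA in 4.17% and 1.79%. Both strands were searched, and a match describes letters, not a bound site.

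Genes that work with the subunits were taken from lists, to be read against the 50.3% of all genes above 0 and the 0.345% called higher. Of 14 assembly factors of complex I, 10 were above 0 and none was called. Of 18 for complex IV, 12 were above 0 and 1 rose: Coa6, which helps deliver copper to the complex, read 10.97 to 11.28 on the controls and 11.43 to 11.57 on the labelled dn-cJun arrays. The log2 fold change of Coa6 was 0.37 (SE 0.076, adjusted p = 0.0426), and it passed without controls 14 and 15 too (0.46, adjusted p = 0.0351). With 1 array left out, the call of Coa6 held only without control 15, and the adjusted p was 0.0481 to 0.109. Of 11 genes of ubiquinone synthesis, 9 were above 0 and 1 rose: Coq3, a methyltransferase of that pathway, at 0.37 (SE 0.072, adjusted p = 0.0323), and 0.42 without controls 14 and 15 (adjusted p = 0.0580). The call of Coq3 held only without control 12 or control 15, with an adjusted p of 0.0419 to 0.0907 over the 10 arrays left out. With the deposited values or equal array medians neither Coa6 nor Coq3 was called. Of the 3 assembly factors of the ATP synthase none was called, but Atpaf2, a chaperone of its head, separated the groups, with 9.40 to 9.58 on the controls and 9.74 to 9.96 on the other arrays (0.38, SE 0.080, adjusted p = 0.0502, and 0.0404 without control 12).

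No call was made among 9 assembly factors of complexes II and III (5 above 0), 17 genes of the citric acid cycle and pyruvate dehydrogenase (10 above 0) or 12 mitochondrial carriers and porins (9 above 0). The 20 genes of mitochondrial biogenesis and mitochondrial DNA expression had 9 above 0 and no call. The smallest p of these lists was that of Mterf4, a regulator of mitochondrial translation, which read 10.19 to 10.37 on the controls and 9.89 to 10.08 on the labelled dn-cJun arrays (-0.29, SE 0.077, adjusted p = 0.111). Idh2, the mitochondrial isocitrate dehydrogenase that uses NADP, gave -0.21 (adjusted p = 0.222), and -0.11 without controls 14 and 15. Of the other genes of biogenesis, Ppargc1a, the coactivator of respiratory genes, gave 0.21 (SE 0.205, adjusted p = 0.689) and Tfam, which packages mitochondrial DNA, 0.02 (SE 0.079, adjusted p = 0.927). ND5, a complex I subunit encoded in mitochondrial DNA, read 15.37 to 15.64 on the controls and 15.04 to 15.81 on the labelled dn-cJun arrays, with a log2 fold change of -0.04. Atpif1, the inhibitor of the ATP synthase, gave -0.28 (SE 0.097, adjusted p = 0.206), with groups that did not overlap, and -0.18 without control 11.

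Of 9 macrophage markers 3 were above 0 and 6 below, and 2 fell, where 0.432% of all genes did: Lyz2 at -0.70 (SE 0.128, adjusted p = 0.0294) and Cd5l at -0.57 (SE 0.107, adjusted p = 0.0323). Without controls 14 and 15 they gave -0.65 (adjusted p = 0.0367) and -0.49 (adjusted p = 0.105). With 1 array left out the call of Lyz2 held only without control 12, control 15 or array 16, and that of Cd5l only without control 12. Of the other markers of the list, Clec4f, Marco, Vsig4 and C1qa gave -0.15, 0.24, 0.05 and 0.03. Cd68, Csf1r and Adgre1 gave -0.27, -0.21 and -0.11, and none of these markers was called. After quantile normalization the summed intensity of the list was 23097 to 35273 on the controls and 20986 to 24973 on the labelled dn-cJun arrays. Of 5 endothelial and 4 lymphocyte markers none was called, and none of the 4 adipocyte markers was above the filter. Of the 2 erythroid markers, Alas2, the first enzyme of haem synthesis in red cell precursors, was above the filter. It read 10.05, 10.95, 10.74, 9.28 and 9.02 on the controls and 10.79 to 11.002 on the labelled dn-cJun arrays (0.91, SE 0.305, adjusted p = 0.181). Controls 14 and 15 were its lowest, and without them it gave 0.34 (adjusted p = 0.385). The part of these cell types in the values of the members was not tested.

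The number of members above 0 followed the scaling between arrays. With the deposited values taken as they are, 24 of 79 members were above 0 with a median of -0.041, where 18.3% of all genes were above 0 and their median was -0.19. Equal array medians gave 64 of 79 above 0 (43.6% of all genes) with a median of 0.119 and no call among members (0.51% of all genes). These scalings differ by the same 0.16 in every gene, which by itself fixes the step from 24 to 64 members. The deposited columns were taken to carry a factor per array on top of a common scale. To undo it, each array was scaled to the same mean, computed without its highest and lowest values. This gave 67 above 0 (48.2% of all genes) with a median of 0.151. Relative to all genes, the members lay 0.034 higher after quantile normalization and 0.152, 0.152 and 0.161 higher under these scalings in turn. Quantile normalization gives all arrays the same distribution, and 71 of the tested members lie at or above its 90th percentile. With the factor undone, 31 members were higher at an unadjusted p under 0.05, where 7.49% of all genes were, and limma called none, where it called 0.769% of all genes. Atp5k was below 0 under all of these scalings, at -0.55, -0.39 and -0.36, with adjusted p of 0.00208, 0.145 and 0.0902. With the deposited values Ndufab1 (-0.41, adjusted p = 0.0139) and Atp5j2 (-0.30, adjusted p = 0.0287) were also called lower, 3 of 79 members where 3.67% of all genes were.

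**Figure D5:**
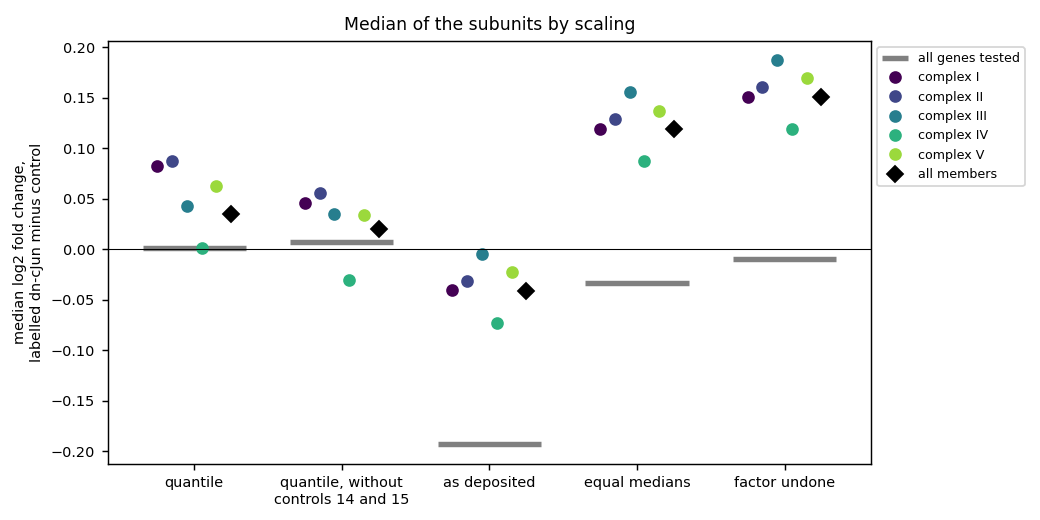
Median log2 fold change (y axis, labelled dn-cJun minus control) under 4 scalings and without controls 14 and 15 (x axis). Circles are complexes, diamonds all members and grey bars all genes tested. The members lie above the bar for all genes in each column, by 0.013 to 0.161, and below 0 only with the deposited values.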

How the data were processed

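The deposited files hold linear intensity per probe set, with 1 liver per array; the software behind these values was not given in the sources used here. Of 45101 probe sets, 64 were controls, 34945 carried 1 symbol in the annotation, 932 more than 1, and 9160 none there.

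The deposited intensity was put on the log2(intensity + 16) scale, which understates changes of dim genes, and quantile normalized. A gene was read by its single-symbol probe set of highest mean and dropped if that set was under the 40th percentile, leaving 12736 genes. The groups were compared in limma 3.58.1 (R 4.3.3) by lmFit and eBayes(trend), two-sided. Benjamini-Hochberg adjustment ran over all genes, or over 22847 probe sets where these are the unit, with a threshold of 0.05. The fit was also run on simulated data, and no result given here rests on that run. Having 5 arrays per group limits the precision.

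Members and lists were chosen with earlier results of these data known, as were the alternatives on controls 14 and 15 and on the factor per array. Named were Ndufa1, Sdha and Cox4i1, members past the threshold, the 4 with the smallest p per complex, paralogous isoforms, members with discordant probe sets, and of each other list those past the threshold or else the smallest p. Other examples were picked after their values were seen. Promoters are from RefSeq (GRCm38.p6). Figures were drawn with matplotlib.

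Alternatives were 3 other scalings, pseudocounts of 1 and 64, another filter (none, or the 60th percentile), averaged probe sets, leaving out _x_at and _s_at sets, every probe set, eBayes robust or without trend, array weights, each array left out, controls 14 and 15 left out or given a term, and thresholds of 0.01 and 0.1.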

Additional observations from a re-analysis of the deposited data

Results flagged for a closer look

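In 14 of 272 groups of 5 arrays examined (5.15%), 1 array stood far from the others of its group, by the gap to the nearest array as a share of the whole range. Chance gives about 1 in 20. The groups are the main probe set of each member and of the genes named from the other lists, the discordant probe sets and the array medians.

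Among the members, the largest share was that of Ndufb9, an accessory subunit of complex I, at 0.897: array 17 read 13.41, and the other labelled dn-cJun arrays read 14.19 to 14.28. Ndufa4l2, the dim gene induced by hypoxia, had 0.735, with array 18 at 5.12 below 6.94 to 7.59. Uqcrfs1, the Rieske protein, had 0.727, with array 18 at 13.60 above 13.53 to 13.55.

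On the controls, Cox4i1 had 0.777, with control 11 at 14.76 above 14.60 to 14.63. The s_at set of Ndufa12, 1418814_s_at, had 0.741, with control 11 at 12.68 above 12.13 to 12.27, and 1460506_s_at of Ndufc2 had 0.759, with control 11 at 12.56 below 12.76 to 12.82. Ndufs1 had 0.819, with control 12 at 12.13 above 11.81 to 11.87, and 1434213_x_at of Ndufs8 had 0.831, with control 12 at 11.93 above 11.58 to 11.64. Ndufc1 had 0.833, with control 14 at 12.98 below 13.10 to 13.13.

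The array median of all members had 0.783 on the labelled dn-cJun arrays, where array 20 was at 0.08 and the others at 0.01 to 0.03.

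Among the genes of other lists, Atpif1, the inhibitor of the ATP synthase, had 0.900, with control 11 at 12.54 above 12.04 to 12.09. Cd5l, the macrophage marker, had 0.787, with control 12 at 13.05 below 13.45 to 13.56. Ckm, the muscle marker, had 0.817, with control 13 at 5.02 below 6.40 to 6.71. Apoa1, the hepatocyte marker, had 1, with array 20 at 16.08 below the other 4, which share the reading 16.16. Quantile normalization gives the same reading to the same rank, and controls 11 and 12 also read 16.08. The share of Apoa1 therefore reflects a step in rank among the brightest probe sets.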

How the results depend on the processing

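With deposited values 3 members were called lower, 7 had an unadjusted p under 0.05, 490 genes were called in all, and the medians were -0.04119 for all members and, for complexes I to V, -0.0409, -0.03125, -0.004692, -0.07295 and -0.02306. With equal array medians 0 members were called, 65 genes in all, and the medians were 0.1189 for all members, 0.1554 for complex III, 0.08714 for complex IV and 0.137 for complex V. With the factor undone 0 were called, 33 members had an unadjusted p under 0.05, and the medians were 0.151 and, for complexes I to V, 0.1512, 0.1607, 0.1874, 0.1193 and 0.1692. Members called lower were 2 at the 60th percentile filter (Atp5k and Ndufab1), 2 with array weights (the same), 2 with a term for controls 14 and 15 (Atp5k and Atp5j2; 156 genes in all), and 0 without these controls (52 in all) or without trend (9 in all). The mean of probe sets gave 1 member higher (Ndufc2, through the set whose control mean is under the filter), 11 at an unadjusted p under 0.05 and 44 genes in all. Every probe set gave 1 higher (that set of Ndufc2) and 2 lower, 30 at an unadjusted p under 0.05 and 170 in all. Without _x_at and _s_at sets the median of complex III was 0.1405. A threshold of 0.01 gave 0 members lower and 8 genes in all, and a threshold of 0.1 gave 1 higher, 3 lower and 250 in all. The cause of these shifts was not tested.

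With each array left out in turn, 0 members were called higher, 0 to 1 lower, and 13 to 21 had an unadjusted p under 0.05. All genes called ranged from 13 (without array 17) to 199 (without control 12). The median of members ranged from 0.02788 to 0.06738, and those of complexes I to V from 0.0658 to 0.09816, 0.06378 to 0.1161, 0.02799 to 0.05918, -0.01022 to 0.02925 and 0.04187 to 0.09126. Without control 11, the array with the Trizol entry, Atp5k was called (adjusted p = 0.0240).

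For the genes named by rule, those of the other lists included, 534 of 599 values with an array left out and 917 of 1013 under the other alternatives kept direction and side of the threshold. Most of these genes were not called in the main fit. With an array left out, 37 values lost the call of the main fit, 1 gained a call and 27 changed direction without a call. Under the other alternatives these were 24, 18 and 54. Taken as a gene, or by its main probe set where every set was the unit, Atp5k was below 0 in every fit run. It was called in 6 of 10 fits with an array left out and in 11 of 15 others. Another of its probe sets was at 0.15 with every set as the unit. No paired analysis was possible because the replicate numbers do not repeat between the groups. Dim members are limited by their signal over background: standard errors were 0.283 for Cox4i2, whose control mean is under the filter, and 0.422 for Ndufa4l2, against a median of 0.064 over members.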
